A study of Mus musculus with 15 samples.

Results

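The 9 genes followed here govern or mark the choice of myeloid fate, and their levels were measured across 5 groups of mouse LSK cells: *Spi1*, *Cebpa*, *Cebpb*, *Cebpd*, *Cebpe*, *Gfi1*, *Gfi1b*, *Irf8* and *Csf1r*. They were taken by symbol, whatever their values, and each of the 9 symbols matched 1 of the 45232 gene identifiers in the count table. All but one encode transcription factors, the exception being *Csf1r*, which encodes a cell surface receptor of the monocyte branch. All 9 were among the 17834 genes tested. The samples were 15 bulk RNA-seq libraries, 3 per group, from LSK cells (lineage-negative, Sca-1-positive, c-Kit-positive cells, the bone marrow fraction that holds stem and multipotent progenitor cells) sorted as CD45.2-positive cells on a C57BL/6 background.

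The 4 mutant groups held donor-derived LSK cells that carried both the *Idh2* R140Q and the *Jak2* V617F mutation, recovered from lethally irradiated CD45.1 recipients that had received these cells mixed with wild-type CD45.1 marrow. The mutations had been induced with *Mx1*-Cre, a Cre recombinase driven by an interferon-responsive promoter and switched on with polyI:polyC. Recipients were gavaged with vehicle, with AG221 (an inhibitor of mutant IDH2, 40 mg per kg), with ruxolitinib (an inhibitor of JAK kinases, 60 mg per kg, the group Rux) or with both drugs (combo). Dosing went on for 21 to 28 days, and the last dose was given about 1.5 hours before sacrifice. The WT group held LSK cells labelled wild type with no drug named, and the sources used here do not say whether these cells had been transplanted or whether each library came from 1 mouse. The p-values therefore measure the spread between these libraries, part of which may be technical.

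PU.1, encoded by *Spi1*, and C/EBPα, encoded by *Cebpa*, open the myeloid program in multipotent progenitors. Granulocyte progenitors then rely on GFI1 and C/EBPε, the latter for granule formation and terminal neutrophil maturation, whereas IRF8 directs cells toward monocytes and dendritic cells and the receptor for macrophage colony-stimulating factor, CSF1R, appears along that branch. GFI1B, a paralogue of GFI1, is used in erythroid and megakaryocyte progenitors, and C/EBPβ and C/EBPδ are induced by cytokines and acute demand.

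Promoter sequences are shown for *Gfi1b*, which was higher in 3 groups of mutant cells than in WT cells, and for *Irf8*, a gene known to respond to STAT proteins that lie downstream of JAK kinases. Each is the 250 bases before a RefSeq start site on GRCm38.p6, written 5′ to 3′ on the strand of the gene, and neither overlaps an annotated exon of its gene. The *Gfi1b* window is chr2:28621983-28622232 on the minus strand and the *Irf8* window is chr8:120736108-120736357 on the plus strand. Capitals mark letters that match a searched motif on either strand.

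Gfi1b: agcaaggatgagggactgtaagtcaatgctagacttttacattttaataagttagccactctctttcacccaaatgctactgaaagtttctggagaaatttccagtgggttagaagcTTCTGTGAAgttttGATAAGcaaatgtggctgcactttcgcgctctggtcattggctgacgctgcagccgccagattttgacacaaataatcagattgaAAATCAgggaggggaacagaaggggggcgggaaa

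Irf8: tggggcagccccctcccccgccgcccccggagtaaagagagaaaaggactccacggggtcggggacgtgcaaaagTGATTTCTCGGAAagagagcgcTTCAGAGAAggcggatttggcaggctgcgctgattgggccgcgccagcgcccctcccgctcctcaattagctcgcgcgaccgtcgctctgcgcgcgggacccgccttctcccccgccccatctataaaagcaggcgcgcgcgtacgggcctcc

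The motifs searched were GATAAG for GATA factors, TTCNNNGAA for STAT factors, AAATCA for GFI1 and GFI1B, GAGGAA for PU.1 and other ETS factors and TTGCNNAA for C/EBP factors, where N is any base. The *Gfi1b* window held 1 match each to the STAT, GATA and GFI letters, in that order toward the start site. The *Irf8* window held 2 matches to the STAT letters and 1 to the GFI letters, and the GFI match shares bases with the first STAT match. Among 32851 promoter windows of the same length, 7.02% held the STAT letters, 6.55% the GATA letters, 12.4% the GFI letters, 23.3% the ETS letters and 9.56% the C/EBP letters. The letters were chosen after the windows had been seen, so these shares are no test of the matches. Whether any factor binds there was not tested. Windows were found for 5 of the 9 genes. *Irf8* and *Gfi1* have a second start site each. The window of the other *Irf8* start held 1 match to the GFI letters and none to the STAT letters, and of the *Gfi1* windows one held a single match to the C/EBP letters and the other none. The *Cebpa* and *Cebpb* windows held none of these letters, and promoters of *Spi1*, *Cebpd*, *Cebpe* and *Csf1r* were not analysed here.

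Libraries held 18836625 to 32174287 counts, with a median of 25545779, so that 3 counts corresponded to 0.0957 to 0.157 CPM (counts scaled to a common library size, as used for all levels). The defining LSK genes were present throughout, with *Kit* at 739.8 CPM or more and *Cd34* at 665 CPM or more in every library, and *Ly6a*, which encodes Sca-1, between 13.1 and 165.8 CPM. The T-cell marker *Cd3e* stayed at or below 1.24 CPM and the neutrophil marker *Ly6g* at or below 2.26 CPM, but sums over marker lists were higher. Summed T and NK markers ran from 160.4 to 225.4 CPM in WT and 411.4 to 458 in vehicle. They ran from 599.9 to 762.9 CPM in AG221, 426.4 to 531.5 in Rux and 366.1 to 404 in combo. These sums do not describe the list as a whole. From WT to vehicle 1 of 6 tested T and NK markers was called higher, *Nkg7*, and 0 lower. The median log2 change of the 6 was -1.27, so most of them were lower in vehicle. Summed neutrophil markers, given by group below, reached 608.9 CPM in Rux. WT libraries carried *Xist* at 455 to 511 CPM and 3 Y-linked genes at 0 to 0.101 CPM in sum, against 0.365 to 19.5 and 231 to 378 CPM in the 12 mutant libraries, so that sex and genotype cannot be told apart; none of the 9 genes lies on X or Y. The names of vehicle, AG221 and Rux replicates begin with A and those of WT and combo replicates with B, the meaning of which is not given, so any difference between a group of the first kind and one of the second cannot be told apart from the letter. The GC tilt of a library is the r of its deviations from each gene's mean log2 CPM with transcript GC content, across 17751 genes. It was most negative in AG221 A8 and A10 and Rux A16, at -0.25, -0.2 and -0.13. Vehicle and WT libraries lay at -0.051 to 0.064 and AG221 A9 at 0.085. Rux A14 and A17 tilted the other way, at 0.16 and 0.13. All combo libraries did so too, with B24, B25 and B26 at 0.12, 0.19 and 0.12. Leaving out A8, A10 and A16 does not remove the tilt of the combo libraries. Calls of members that were lost without A8, A10 and A16, and values given here that changed sign, are reported with and without these 3 libraries. In bulk RNA, fewer cells of a type and less RNA per cell cannot be told apart.

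Vehicle-treated mutant cells differed from WT cells in *Cebpe*, *Csf1r* and *Gfi1b*, each of which was higher. A gene was called at an adjusted p under 0.05, from the quasi-likelihood test of edgeR on all libraries with Benjamini-Hochberg adjustment over all tested genes. Between vehicle and WT, 3 of 9 members were called, all higher, where 33.3% of all tested genes were called. Against WT, AG221 cells had 4 members called, all higher (50.7% of all genes), and Rux cells 3, all higher (32.3%). Combo cells had none called against WT, where 3.25% of all genes were called, 3 members had an unadjusted p under 0.05 and DESeq2 called 2. Shares of members near the share over all genes are no result about the members as a set. The same holds for the counts of list genes given below, which are to be read beside the share for their comparison.

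Neither single drug produced a called member against vehicle. For AG221 the background was 0.987% of genes, 1 member had an unadjusted p under 0.05 and DESeq2 called 0. For Rux the background was 0.0168%, no member had an unadjusted p under 0.05 and DESeq2 called 0. Both drugs together gave 1 called member against vehicle, *Gfi1*, higher (12.5% of genes). Combo against AG221 gave 4, of which *Spi1* and *Cebpd* were higher and *Cebpe* and *Csf1r* lower (33.2%), and combo against Rux gave *Gfi1* higher and *Cebpe* lower (12.4%). The interaction term, which asks whether the effect of one drug differed with the other present, called *Cebpe* alone (8.42%). The median log2 fold change over the 9 members was 0.39 for vehicle against WT, beside -0.09 over all tested genes, and 0.58 for combo against vehicle, beside 0.04 over all tested genes. Comparisons that share the WT, the vehicle or the combo libraries are not independent of each other.

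**Figure D1:**
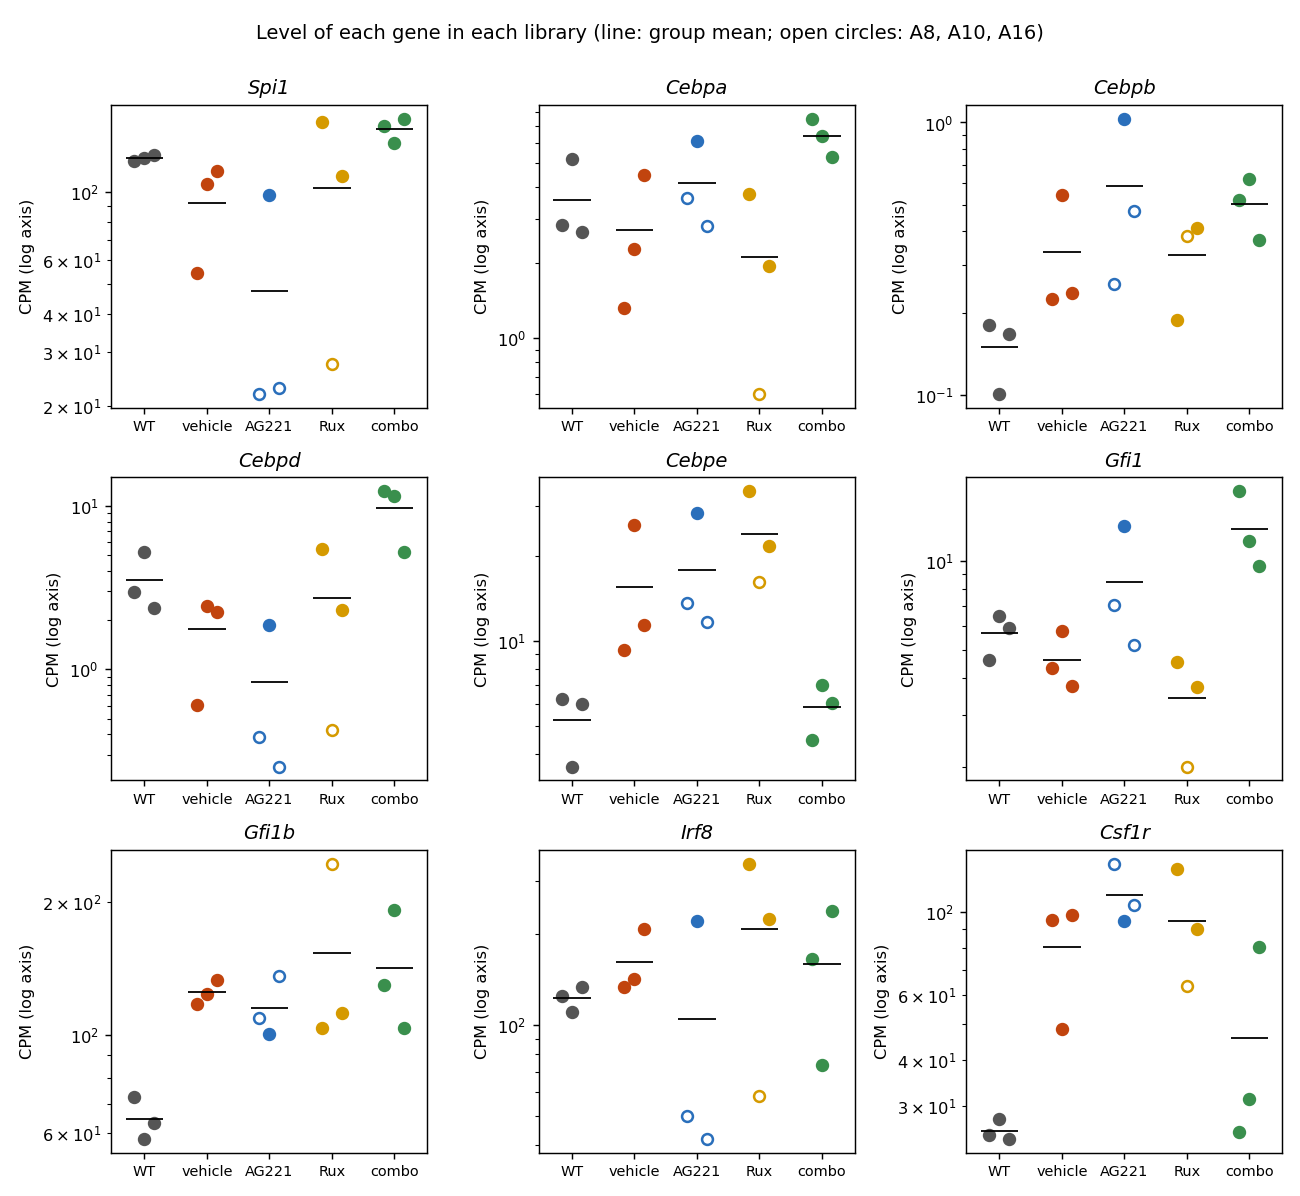
Level of each of the 9 genes in every library, in CPM on a log axis, by group on the horizontal axis; each circle is 1 library, the line is the mean of 3, and open circles are the libraries A8, A10 and A16. The 6 WT and combo libraries lie at 3.61 to 7.02 CPM for Cebpe, below all other libraries, and the open circles are the lowest points for Spi1, Cebpd and Irf8.

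**Figure D2:**
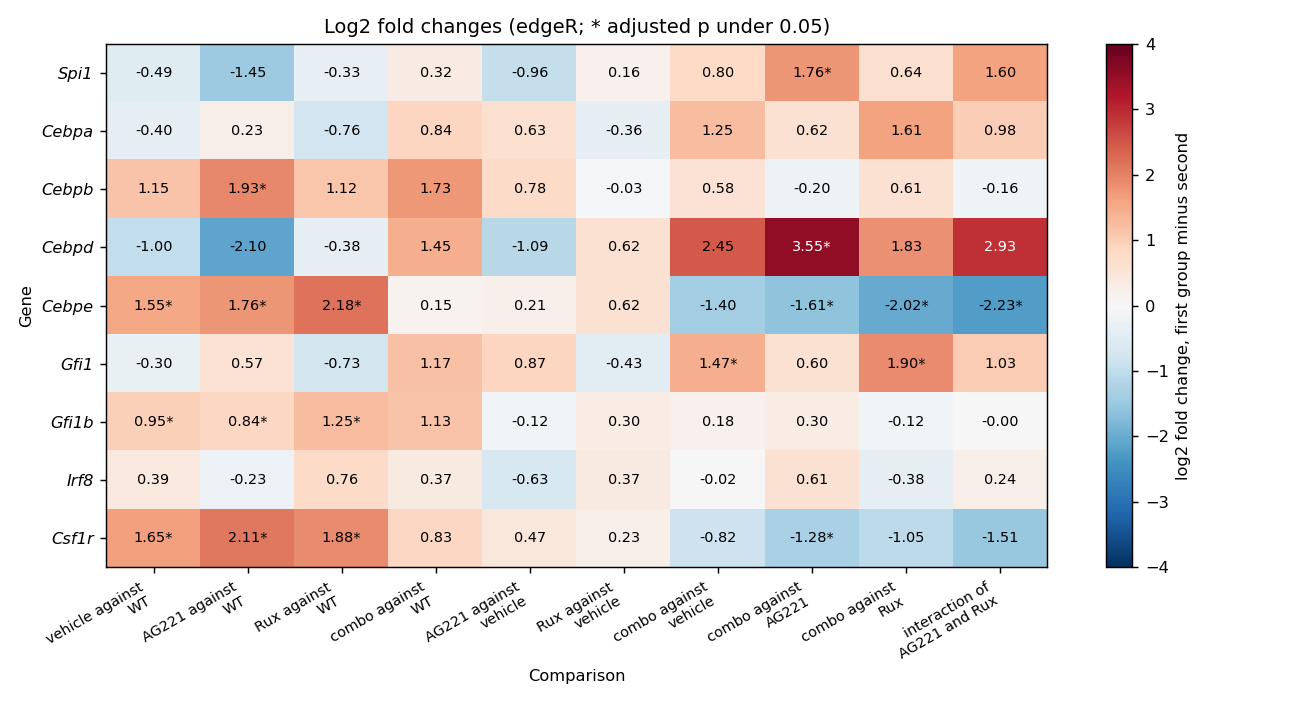
Log2 fold changes of the 9 genes (rows) in 10 comparisons (columns), first group minus second, with colour giving the same value and an asterisk marking an adjusted p under 0.05 in edgeR. Asterisks fall on Cebpe in 6 columns and on Irf8 and Cebpa in none.

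*Cebpe* (ENSMUSG00000052435, chr14:54710360-54712174, minus strand on GRCm38), the granulocyte C/EBP factor, gave the most calls. It stood at 6.24, 3.61 and 6.00 CPM in the WT libraries B28, B30 and B31 and at 9.29, 25.8 and 11.5 CPM in the vehicle libraries A1, A3 and A4. The AG221 libraries A8, A9 and A10 held 13.7, 28.3 and 11.7 CPM, and the Rux libraries A14, A16 and A17 held 33.9, 16.2 and 21.6 CPM. The combo libraries B24, B25 and B26 held 4.49, 7.02 and 6.06 CPM. All 9 libraries whose names begin with A therefore lay above all 6 whose names begin with B, a separation shown by 12.5% of all tested genes. Group means were 5.28 ± 1.46 CPM in WT (SD, n = 3), 15.5 ± 8.97 in vehicle, 17.9 ± 9.08 in AG221, 23.9 ± 9.05 in Rux and 5.85 ± 1.28 in combo.

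*Cebpe* was 2.94-fold higher in vehicle than in WT cells, a log2 change of 1.55 (SE 0.441, adjusted p = 0.0193). The call was lost without vehicle A3 (adjusted p = 0.078) and without WT B30 (0.0889). It was 3.39-fold higher in AG221 than in WT cells (adjusted p = 0.00625) and 4.52-fold higher in Rux than in WT cells (0.00571), and both calls held with each library left out. Against the combination, *Cebpe* fell by 2.02 on the log2 scale from Rux to combo (SE 0.447, adjusted p = 0.00942; 0.0553 without B24) and by 1.61 from AG221 to combo (SE 0.443, adjusted p = 0.015). The latter missed the threshold without A9 (0.0511), without B24 (0.0691) and without A8, A10 and A16 together (0.0714, with a larger change of -2.29). From vehicle to combo the value was -1.40 (95% interval -2.35 to -0.46), just short of a call at an adjusted p of 0.053, and 7 of 9 other settings called it, whereas none of the 6 fits without 1 library did. Combo and WT cells were not distinguished for *Cebpe*, with a log2 difference of 0.15 and a 95% interval of -0.79 to 1.09.

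Neither drug alone gave a call for *Cebpe* against vehicle, with wide intervals. The log2 difference from vehicle was 0.21 for AG221 (95% interval -0.72 to 1.13; 0.85 without A8, A10 and A16) and 0.62 for Rux (-0.30 to 1.54). AG221 given on top of Rux went with a log2 change of -2.02, and the difference between both effects of AG221, the interaction, was -2.23 (SE 0.615, adjusted p = 0.0451). That call held in 2 of 12 fits without 1 library, namely without vehicle A3 and without AG221 A9, and the adjusted p reached 0.115 in the others; without A8, A10 and A16 it was 0.123.

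The granule genes that C/EBP factors are known to serve gave their own values beside *Cebpe*. All 6 tested primary granule genes, whose products fill the azurophil granules of promyelocytes, rose from WT to vehicle with a median log2 change of 1.61. Among them, *Mpo*, encoding myeloperoxidase, rose by 1.53 (SE 0.225, adjusted p = 0.00101), *Ctsg*, encoding cathepsin G, by 1.69 (0.00102), and *Ms4a3* by 2.12 (0.000368). *Mpo* stood at 2163.8 to 2388.1 CPM in WT, 5190.7 to 7869.6 in vehicle, 10438.9 to 12390.1 in AG221, 8096.2 to 12140.8 in Rux and 2629.5 to 4997.1 in combo. From vehicle to AG221 2 of the 6 rose (median 1.12). Between vehicle and combo 3 of the 6 fell (median -0.83), from AG221 to combo all 6 fell (-1.83) and from Rux to combo all 6 fell (-1.37). Counts of list genes from AG221 to combo, here and below, were not repeated without A8, A10 and A16. Without these libraries 109 genes in all were called from AG221 to combo, against 5917 with them. Of 10 secondary granule genes, used later in neutrophil maturation, 2 rose from WT to vehicle (*Lcn2* by 3.12 and *Mmp8* by 2.08), 6 fell from AG221 to combo, and the median from vehicle to combo was -0.76. Summed neutrophil markers ran from 78.4 to 128.5 CPM in WT, 80.4 to 207.8 in vehicle, 403.2 to 602 in AG221, 117.1 to 608.9 in Rux and 43.2 to 167.5 in combo, and 2 of 8 rose from WT to vehicle (median 0.95). Of these 8 markers 5 are also secondary granule genes, and their part in the *Cebpe* result was not tested.

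*Csf1r* (ENSMUSG00000024621, chr18:61100598-61132149, plus strand) gave the steadiest difference from WT. It measured 25.1, 27.7 and 24.5 CPM in the WT libraries B28, B30 and B31 and 95.6, 48.5 and 98.2 CPM in the vehicle libraries A1, A3 and A4. It measured 135.2, 94.9 and 104.6 CPM in AG221 A8, A9 and A10 and 130.8, 63.2 and 89.9 CPM in Rux A14, A16 and A17. The combo libraries split, with B24 at 25.6 and B25 at 31.4 CPM beside WT and B26 at 80.4 CPM within the range of the vehicle libraries. The gene was 3.13-fold higher in vehicle than in WT cells (log2 1.65, SE 0.404, adjusted p = 0.0111), 4.33-fold higher in AG221 (adjusted p = 0.00153) and 3.67-fold higher in Rux (0.00693). These 3 calls held in every fit that left out 1 library and in every other setting tried.

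From AG221 to combo *Csf1r* fell by 1.28 on the log2 scale (SE 0.399, adjusted p = 0.0256), without overlap of the libraries. The call was lost without A8 (0.081), without B24 (0.108), without B25 (0.101), with only the groups compared (0.0553) and without A8, A10 and A16 (0.334). From vehicle to combo the value was -0.82 (95% interval -1.67 to 0.03, adjusted p = 0.208), and from Rux to combo it was -1.05 (adjusted p = 0.11). Library B26 decided both: without it the values were -1.51 (adjusted p = 0.0134) and -1.73 (0.00599), and the interaction moved from -1.51 (0.0892; 0.0339 by DESeq2) to -2.19 (0.0174). Exons of *Csf1r* overlap *Hmgxb3* on the opposite strand over 15.1% of their length, and the strand setting of the counting is not given in the sources used here.

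Of 17 tested monocyte genes, a list built around surface and lysosomal genes downstream of PU.1 and CSF1R, 8 rose from WT to vehicle (median log2 change 0.81), 2 fell from vehicle to combo (median -0.37) and 12 fell from AG221 to combo (median -1.03). *Cd14*, encoding the endotoxin co-receptor, rose by 2.83 from WT to vehicle (adjusted p = 0.00145) and fell by 2.47 from vehicle to combo (0.00367). *Ccr2*, the receptor that monocytes use to leave the marrow, rose by 3.59 from WT to vehicle (0.000143), while its value from vehicle to combo was -0.41 (adjusted p = 0.521), and it was still 3.19 higher in combo than in WT (0.000999). Summed monocyte and macrophage markers ran from 486.4 to 556.1 CPM in WT, 1171.5 to 1331.4 in vehicle, 1985.2 to 3028.5 in AG221, 1135.5 to 2032.1 in Rux and 718.2 to 1236.6 in combo; 3 of 7 rose from WT to vehicle (median 1.01), and 5 of these 7 are also in the list of 17. The macrophage markers *C1qa* and *Adgre1* stayed at or below 5.96 and 8.76 CPM. Whether these transcripts came from the LSK cells themselves was not tested.

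*Gfi1b* (ENSMUSG00000026815, chr2:28609450-28621982, minus strand), the erythroid and megakaryocyte repressor whose promoter is printed above, was higher in each mutant group than in WT. It stood at 72.5, 58.2 and 63.4 CPM in WT B28, B30 and B31 and at 117.7, 124.2 and 133.5 CPM in vehicle A1, A3 and A4. AG221 A8, A9 and A10 held 109.5, 100.5 and 136.4 CPM and Rux A14, A16 and A17 held 103.8, 244.8 and 112.3 CPM. Combo B24, B25 and B26 held 129.8, 191.8 and 103.6 CPM, so that the lowest of the 12 mutant libraries lay above the highest WT library. The share of all tested genes with this separation was not counted, nor were such shares for the group separations of other members. The log2 difference from WT was 0.95 in vehicle (SE 0.295, adjusted p = 0.0272), 0.84 in AG221 (0.0307), 1.25 in Rux (0.0101) and 1.13 in combo (0.054), the last short of a call.

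Leaving out single libraries moved these *Gfi1b* calls across the threshold. For vehicle against WT, adjusted p was 0.0509 without A1, 0.0637 without A4, 0.102 without B30, 0.0565 without B31 and 0.0526 with upper quartile normalization. For AG221 it was 0.058 without A8, 0.103 without A10, 0.0975 without B30, 0.0687 without B31 and 0.138 without A8, A10 and A16. For Rux it was 0.0501 without B30, and without A16, which held the highest level, the log2 difference was 0.79. Without A8, A10 and A16 it was 0.74 (adjusted p = 0.0353). Combo against WT was called by DESeq2 (0.0107) and in 3 other settings. Between the mutant groups no *Gfi1b* difference was called, and the log2 difference from vehicle to combo was 0.18 (95% interval -0.45 to 0.81).

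Genes of the erythroid and megakaryocyte branch were given beside *Gfi1b*. Among 21 other myeloid fate factors, 5 rose and 5 fell from WT to vehicle (median -0.26), and *Gata1*, the erythroid master regulator, rose by 1.89 (SE 0.38, adjusted p = 0.00531). *Gata1* stood at 32.7 to 40.2 CPM in WT and at 99.2 CPM or more in every mutant library, and remained 1.93 higher in combo than in WT (adjusted p = 0.0193). Between vehicle and combo 4 of the 21 rose and 2 fell (median 0.04), led by *Egr2*, which fell by 6.23 (0.000171). Of 9 erythroid markers 4 rose from WT to vehicle (median 1.72) and of 6 megakaryocyte markers 3 rose (median 0.91). Over all tested genes 33.3% were called from WT to vehicle and 12.5% from vehicle to combo, in either direction. *Itga2b*, encoding integrin αIIb, rose by 1.92 from WT to vehicle (0.00107). Summed erythroid markers were 376.1 to 506.2 CPM in WT and 742.4 CPM or more in mutant libraries, and the highest value, 4140.5 CPM, was in Rux A16, the library that also held the highest *Gfi1b*. The other Rux libraries stood at 1168.4 and 1183.3 CPM. Mast and basophil markers also moved, with 5 of 6 higher in vehicle than in WT (median 3.20) and sums of 71.5 to 150.2 against 566 to 990 CPM. The part of these cell types in the *Gfi1b* difference was not tested.

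*Gfi1* (ENSMUSG00000029275, chr5:107716657-107726036, minus strand), the granulocyte paralogue of *Gfi1b*, had its highest mean in combo but was not distinguished there from AG221 alone. It measured 4.61, 6.51 and 5.94 CPM in WT B28, B30 and B31 and 4.32, 5.78 and 3.75 CPM in vehicle A1, A3 and A4. It measured 7.10, 13.1 and 5.17 CPM in AG221 A8, A9 and A10 and 4.52, 2.01 and 3.73 CPM in Rux A14, A16 and A17. Combo B24, B25 and B26 held 17.2, 11.6 and 9.58 CPM, all above every WT, vehicle and Rux library, with AG221 A9 the only other library within their range. From vehicle to combo *Gfi1* rose 2.76-fold (log2 1.47, SE 0.376, adjusted p = 0.0213), and from Rux to combo it rose 3.73-fold (log2 1.90, SE 0.383, adjusted p = 0.00579). The second call held in each fit without 1 library, whereas the first was lost without A1 (0.0898), A4 (0.0761), B24 (0.106) or B25 (0.0508). Against WT the combo value was 1.17 (95% interval 0.37 to 1.97, adjusted p = 0.0856), called by DESeq2 (0.0267) and in 3 other settings, and against AG221 it was 0.60 (-0.20 to 1.39), or 1.06 without A9 (adjusted p = 0.0301) and -0.057 without A8, A10 and A16. With GC content offsets combo against AG221 was 0.098. From vehicle to AG221 the *Gfi1* value was 0.87 (0.07 to 1.67, adjusted p = 0.169), or 1.49 without A8, A10 and A16.

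Of 7 tested corepressors that GFI1 proteins recruit, 2 rose from vehicle to combo (median log2 change 0.69), 5 rose from AG221 to combo (median 1.18), and 1 fell from WT to vehicle (median -0.32). *Kdm1a*, encoding the histone demethylase LSD1, rose by 1.28 from vehicle to combo (SE 0.193, adjusted p = 0.00212) and was 0.97 higher in combo than in WT (0.0198). *Hdac2*, a histone deacetylase, rose by 2.15 from vehicle to combo (SE 0.512, adjusted p = 0.0152) and fell by 1.41 from WT to vehicle (0.0448).

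*Spi1* (ENSMUSG00000002111, chr2:91082390-91115756, plus strand), encoding PU.1, was even among WT libraries at 126.4, 129.7 and 132.6 CPM in B28, B30 and B31. It stood at 54.3, 105.9 and 117.3 CPM in vehicle A1, A3 and A4, and at 21.9, 97.9 and 22.8 CPM in AG221 A8, A9 and A10. Rux A14, A16 and A17 held 170.1, 27.4 and 112.8 CPM and combo B24, B25 and B26 held 164.8, 145.2 and 173.7 CPM. The 3 lowest values belonged to A8, A10 and A16, the libraries with the most negative GC tilt, and the next lowest to A1, whose tilt was -0.051. The rise of 1.76 from AG221 to combo (3.39-fold, SE 0.612, adjusted p = 0.0406) was lost without A8 (0.152), A10 (0.143), B24 (0.0892), B25 (0.0707) or B26 (0.083). It was also lost with only the groups compared (0.054), while 7 of 9 other settings called it, GC content offsets among them. Without A8, A10 and A16 together the change was 0.71 (adjusted p = 0.367). From vehicle to AG221 the value was -0.96 (95% interval -2.25 to 0.33), which became -2.06 without A9 (adjusted p = 0.0159), -0.71 with GC content offsets and 0.06 without A8, A10 and A16. AG221 against WT gave -1.45 (adjusted p = 0.0605; called by DESeq2, 0.0386, and at -2.52 without A9, 0.00236), which became -0.41 (0.431) without A8, A10 and A16. The value for combo against vehicle was 0.80 (0.436).

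*Spi1* shared its pattern with many genes: 1084 of the other 17833 tested genes (6.08%) had a Pearson r over 0.9 with it across the 15 libraries, on log2 CPM. *Cebpd* had 857 such genes, *Csf1r* 58, *Gfi1* 20, *Irf8* 11, *Gfi1b* 9, *Cebpa* 5, *Cebpe* 4 and *Cebpb* 0. These counts describe libraries that share depth, letter and GC tilt, and r values carry no test here.

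*Irf8* (ENSMUSG00000041515, chr8:120736358-120756694, plus strand), whose promoter is printed above, had no call in any comparison. It stood at 124.8, 110.3 and 133.3 CPM in WT B28, B30 and B31 and at 133.8, 142.2 and 207.1 CPM in vehicle A1, A3 and A4. It stood at 50.1, 221.4 and 41.9 CPM in AG221 A8, A9 and A10 and at 341.3, 58.2 and 223.3 CPM in Rux A14, A16 and A17. Combo B24, B25 and B26 held 165.1, 73.8 and 238.6 CPM. The libraries within AG221, Rux and combo thus differed from each other by more than the means of any pair of groups. The 95% interval of the log2 difference was -0.99 to 1.78 for vehicle against WT (value 0.39), -2.01 to 0.76 for AG221 against vehicle (-0.63) and -1.40 to 1.37 for combo against vehicle (-0.02). Without A9 the AG221 value was -1.82 (adjusted p = 0.0409) and without A8, A10 and A16 it was 0.44. Rux against WT was 0.76, and 1.21 without these 3 libraries (adjusted p = 0.0475). Among 11 dendritic cell genes, a branch that depends on IRF8, 2 fell from WT to vehicle (median -0.96), *Zbtb46* by 1.79 (0.012) and *Clec9a* by 1.34 (0.049). Between vehicle and combo *Zbtb46*, a transcription factor of classical dendritic cells, rose by 2.13 (0.00841) as the only call of the 11 (median -0.34).

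*Cebpd* (ENSMUSG00000071637, chr16:15887286-15891031, plus strand), a cytokine-induced C/EBP factor, had its highest mean in combo but was not distinguished there from WT or Rux. It measured 2.98, 5.22 and 2.38 CPM in WT B28, B30 and B31 and 0.602, 2.43 and 2.25 CPM in vehicle A1, A3 and A4. It measured 0.385, 1.88 and 0.255 CPM in AG221 A8, A9 and A10, of which A10 rests on 7 counts, and 5.42, 0.427 and 2.31 CPM in Rux A14, A16 and A17. Combo B24, B25 and B26 held 12.3, 11.5 and 5.23 CPM, above every vehicle and AG221 library, while B26 lay beside WT B30 and below Rux A14. Neither combo against WT (adjusted p = 0.266) nor combo against Rux (0.172) was called. The rise of 3.55 on the log2 scale from AG221 to combo (SE 0.886, adjusted p = 0.00975) held with each single library left out and was 2.34 (adjusted p = 0.183) without A8, A10 and A16. From vehicle to combo the value was 2.45 (95% interval 0.67 to 4.23, adjusted p = 0.0712), called by DESeq2 (0.0159) and in 3 other settings, among them the fit without A8, A10 and A16 (2.41, adjusted p = 0.011). AG221 against WT gave -2.10 (adjusted p = 0.0548; called by DESeq2, 0.0301), and the interaction was 2.93 (0.11), called by DESeq2 (0.0469) and without A9 (0.015). Without A8, A10 and A16 these values were -0.90 (0.432) and 1.23 (0.716). Exons of *Cebpd* overlap *Spidr* on the opposite strand over 15% of their length.

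*Cebpa* (ENSMUSG00000034957, chr7:35119293-35121928, plus strand), the factor required for entry into the granulocyte and monocyte lineage, had no call. WT B28, B30 and B31 held 2.83, 5.19 and 2.65 CPM and vehicle A1, A3 and A4 held 1.32, 2.27 and 4.50 CPM. AG221 A8, A9 and A10 held 3.63, 6.10 and 2.80 CPM and Rux A14, A16 and A17 held 3.77, 0.598 and 1.94 CPM. Combo B24, B25 and B26 held 7.51, 6.39 and 5.27 CPM, above every WT, vehicle and Rux library. The gap to WT was narrow, with B30 at 5.19 CPM, and combo against WT was not called (adjusted p = 0.356). The log2 difference was 1.25 for combo against vehicle (95% interval 0.04 to 2.46, adjusted p = 0.175) and 1.61 for combo against Rux (0.38 to 2.84, adjusted p = 0.0879). The latter was called by DESeq2 (0.0315) and without Rux A14 (0.0344). With GC content offsets *Cebpa* was also called in AG221 against WT (1.47, adjusted p = 0.0101), where the value without offsets was 0.23, or 0.78 without A8, A10 and A16.

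*Cebpb* (ENSMUSG00000056501, chr2:167688915-167690418, plus strand), the factor of emergency granulopoiesis, was close to the limit of detection, with 3 to 22 counts per library. WT B28, B30 and B31 held 5, 3 and 5 counts (0.101 to 0.181 CPM), vehicle libraries 6 to 17 counts and AG221 A8, A9 and A10 held 6, 22 and 13 counts. Rux libraries held 4 to 11 counts and combo libraries 8 to 18. The log2 difference from WT was 1.93 in AG221 (SE 0.599, adjusted p = 0.0175), 1.15 in vehicle (0.152), 1.12 in Rux (0.169) and 1.73 in combo (0.105). The AG221 call was lost without A9 (0.0951) and without B30 (0.0658). With GC content offsets the vehicle value was 1.84 (0.029), and combo against AG221 moved from -0.20 to -2.06 (0.0127), or to -1.03 without A8, A10 and A16 (0.52). Exons of *Cebpb* overlap *Tmem189* on the opposite strand over 20.7% of their length.

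**Figure D3:**
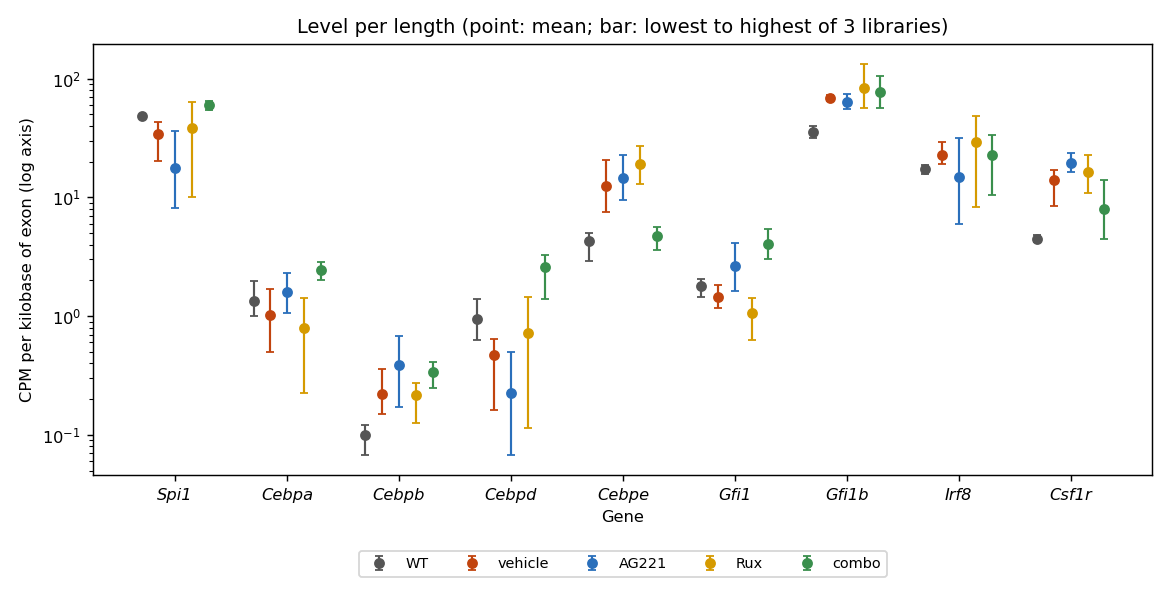
Level of the 9 genes per length, in CPM per kilobase of exon on a log axis; points are group means and bars run from the lowest to the highest of 3 libraries. Spi1 leads in WT and Gfi1b in the other 4 groups, and Cebpb or Cebpd is lowest.

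Levels of different genes were set side by side only per length, as CPM per kilobase of exon. In WT cells *Spi1* was highest at 48.1 ± 1.16 (SD, n = 3), followed by *Gfi1b* at 35.4 ± 3.97 and *Irf8* at 17.4 ± 1.64, and the ranges of these 3 did not overlap. *Csf1r* (4.46 ± 0.30) and *Cebpe* (4.26 ± 1.17) overlapped each other, as did *Gfi1* (1.78 ± 0.31), *Cebpa* (1.35 ± 0.54) and *Cebpd* (0.94 ± 0.40), and *Cebpb* was lowest at 0.10 ± 0.03. In vehicle cells *Gfi1b* led at 68.4 ± 4.34 and lay above *Spi1* at 34.3 ± 12.5 without overlap, *Spi1* overlapped *Irf8* at 22.8 ± 5.68, and *Csf1r* overlapped *Cebpe* at 12.5 ± 7.22. In AG221 cells *Csf1r*, *Spi1*, *Irf8* and *Cebpe* (19.3 to 14.4) overlapped each other in turn. In Rux cells *Gfi1b*, *Spi1*, *Irf8*, *Cebpe* and *Csf1r* (83.9 to 16.4) overlapped each other in turn. In combo cells *Gfi1b* at 77.5 ± 24.8 overlapped *Spi1* at 59.8 ± 5.41, followed by *Irf8* at 22.6 ± 11.7, *Csf1r* at 7.93 ± 5.22 and *Cebpe* at 4.72 ± 1.03.

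**Figure D4:**
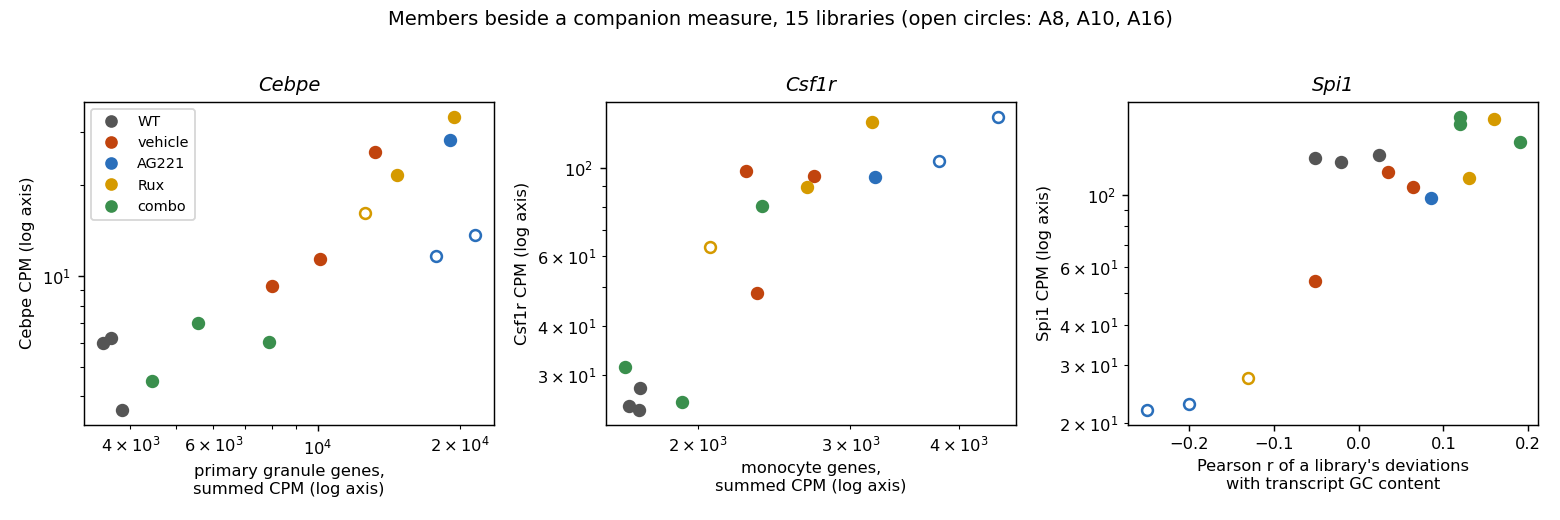
Cebpe against summed primary granule genes and Csf1r against summed monocyte genes, in CPM on log axes, and Spi1 in CPM on a log axis against the GC tilt of each library, the r of its deviations with transcript GC content; each circle is 1 of 15 libraries, open for A8, A10 and A16. The 6 WT and combo libraries lie at 3.61 to 7.02 CPM of Cebpe, and the 3 libraries with a tilt of -0.25 to -0.13 hold the lowest Spi1.

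For each member the 3 tested genes of at least 5 CPM on average with the highest Pearson r over 15 libraries were named, as a description. Those of *Cebpe* were *Tspoap1* (r = 0.952), *Lta4h* (0.942), encoding the hydrolase that makes leukotriene B, and *Rpl22l1* (0.911). Those of *Csf1r* were *F13a1* (0.953), a coagulation factor subunit expressed by monocytes, *Atp8b4* (0.945) and *Fes* (0.943), a myeloid tyrosine kinase. *Irf8* lay nearest to *Ncf1* (0.956), a subunit of the phagocyte oxidase, *Ccdc88c* (0.943) and *Egln3* (0.938). *Gfi1b* lay nearest to *Hemgn* (0.965), an erythroid nuclear protein, *Cnr2* (0.956) and *Gata1* (0.938). *Gfi1* lay nearest to *Nsd2* (0.934), *Fkbp5* (0.933) and *Ppp2r5a* (0.927), *Spi1* to *Prkcd* (0.99), *Cmtm7* (0.989) and *Ube2d2a* (0.989), and *Cebpd* to *Foxm1* (0.982), *Lrrc59* (0.982) and *Fam122a* (0.98). *Cebpa* lay nearest to *Nup153* (0.934), *Zfp598* (0.912) and *Rbms1* (0.911), and *Cebpb* to *Trappc6a* (0.805), *Jade1* (0.794) and *Naa20* (0.759), the lowest values of the 9.

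Partners and signals of the pathway completed the picture. Of 8 C/EBP family members and partners, 4 rose and 1 fell from WT to vehicle (median 0.73), and 2 rose and 3 fell from vehicle to combo (median -0.35). *Trib1*, a pseudokinase that promotes degradation of C/EBPα, rose by 2.40 from WT to vehicle (SE 0.501, adjusted p = 0.00608) and fell by 3.03 from vehicle to combo (SE 0.519, adjusted p = 0.00331). It stood at 3.59 to 5.66 CPM in WT, 17.3 to 29.4 in vehicle and 2.07 to 3.81 in combo, with no overlap between vehicle and either other group. *Cebpg*, a dimer partner without a strong activation domain, went the other way, with -1.13 from WT to vehicle (0.0259) and 1.67 from vehicle to combo (0.00787).

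Of 9 tested colony-stimulating factor receptors and ligands, 2 rose and 2 fell from WT to vehicle (median 0.03) and 2 fell from vehicle to combo (median -0.27). The genes that rose, *Csf2rb* by 1.76 (SE 0.256, adjusted p = 0.000963) and *Csf2rb2* by 2.33 (0.00533), encode the beta chain shared by the GM-CSF and related cytokine receptors and its mouse paralogue specific to the interleukin receptor IL-3R, both of which signal through JAK kinases, and the same 2 fell from vehicle to combo, by 1.32 (0.00521) and 2.38 (0.0059). They are near-identical copies whose reads may be split between them. *Flt3*, the receptor of lymphoid-primed progenitors, fell by 1.99 from WT to vehicle (0.0252). Of 10 JAK/STAT feedback genes, 1 rose and 1 fell from WT to vehicle (median 0.34), *Socs3* by 2.17 (0.0491) and *Socs1* by 2.25 (0.0331), and *Cish* fell by 1.82 from vehicle to combo (0.035) as the only call there (median -0.17).

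Immediate early genes had the largest median changes of the 18 lists in vehicle against WT and in combo against vehicle. Of 12 tested, 10 rose from WT to vehicle (median 3.60) and 9 fell from vehicle to combo (median -3.74), and *Fos* stood at 1425.7 CPM or more in every library named A and at 129.1 CPM or less in every library named B. These genes respond to handling and cell sorting as well as to cytokines, and their part in the member results was not tested. Of 12 LSK and stem cell markers 3 rose and 2 fell from WT to vehicle (median -0.20), of 7 B-lineage markers 4 fell (median -1.69), and of 6 tested T and NK markers *Nkg7* rose by 1.29 (0.000229; median -1.27).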

How the data were processed

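RNA from sorted LSK cells was amplified with the SMARTer method, which keeps no molecular identifiers, and read as 15 bulk libraries, 3 per group. Per the labels and the submitters' processing notes, the authors aligned reads with STAR (version 2.5.1a) to mm10 (GRCm38), counted them per Ensembl gene with the quantMode of STAR and normalized them with DESeq2 (version 1.6.3). The authors deposited raw counts, which were used here, and a table of size-factor-normalized signal, which was not. The Ensembl release and the strand setting of the counting are not given in the sources used here. The methods of the study name a higher AG221 dose for some experiments, and the dose given here is that of the labels.

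Counts were tested in edgeR 4.0.16 (R 4.3.3, limma 3.58.1) with filterByExpr by group, TMM normalization and the quasi-likelihood F test over all 15 libraries, with Benjamini-Hochberg adjustment over the 17834 genes kept. CPM used TMM library sizes, and log2 CPM a prior count of 2. Intervals are 95% intervals of the fitted log2 fold change. Total counts of 18836625 to 32174287 per library set the counting precision, and floors of 3 counts cover counting error only. Replicates of a group differed by 15 to 174 times the sampling noise (chi-square per degree of freedom), so none was a copy of the counts of another. This measure covers counting noise only and cannot tell whether replicates came from the same mouse. The code was tested on simulated data. DESeq2 1.42.0, RLE and upper quartile normalization, 2 other filters, fits of only the groups compared, omission of chromosomes X and Y, GC content offsets and omission of each library were tried, and omission of A8, A10 and A16 was added after seeing the data.

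Gene symbols, coordinates and GC content came from GENCODE M21 on GRCm38, and promoter sequences and their build, GRCm38.p6, from RefSeq; motif letters were chosen after the windows had been seen. The 9 members, the 18 gene lists and the tests were chosen with earlier results of these data known. Named genes were the 9 members, the 3 genes of at least 5 CPM most correlated with each, and up to 4 examples per list with the smallest p in the comparison described; *Ccr2*, *Fos*, *Adgre1*, *C1qa* and *Trib1* levels, and other values of examples in further comparisons, were added after their values were seen. Python 3.11.15 made the tables.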

Additional observations from a re-analysis of the deposited data

Results flagged for a closer look

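The interaction of AG221 and ruxolitinib was called for *Cebpe* in the main fit, a call that most fits without 1 library lost. AG221 against vehicle gave a log2 change of 0.21, and combo against Rux gave -2.02. The difference of both, tested as the interaction term in edgeR over all libraries, was -2.23 (SE 0.615, adjusted p = 0.0451), and *Cebpe* was lower in each of the 3 combo libraries (4.49 to 7.02 CPM) than in each of the 3 Rux libraries (16.2 to 33.9 CPM). The adjusted p ranged from 0.0348 to 0.115 with 1 library left out and stayed under the threshold in 2 of these 12 fits. It was 0.0738 with only the groups compared and 0.123, at a value of -3.11, without A8, A10 and A16. Combo is the only one of the 4 mutant groups whose replicate names begin with B, so the interaction and the letter cannot be told apart. Outlying libraries within a group were not tested, since every group held 3.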

How the results depend on the processing

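No paired analysis was possible because the groups share no replicate numbers and the labels name no matched sets. The methods of the study describe drug-treated mice that were matched on blood counts, donor chimerism and body weight before random assignment. The tests here do not take that matching into account. Over all 90 pairs of a member and a comparison, the alternatives gave 1379 log2 fold changes, of which 1211 kept their direction and side of the threshold, 51 gained a call, 48 lost one and 69, in 34 pairs, changed sign. For the 50 pairs whose change is given in the text these were 645, 47, 48 and 15. The causes were not tested. Omitting chromosomes X and Y moved no count by over 1.5 times. Members called from vehicle to combo (1) numbered 2 with RLE, upper quartile, at least 10 counts per library, GC content offsets or only the groups compared, and 3 with no filter, DESeq2 or without A8, A10 and A16. From AG221 to combo (4) they numbered 2 with only the groups compared and 0 without these 3 libraries. Against WT, combo (0) had 1 with no filter or GC offsets and 2 with only the groups compared, DESeq2 or without the 3 libraries. The interaction (1) had 2 with upper quartile or no filter, 3 with DESeq2, and 0 with only the groups compared or without the 3 libraries. With 1 library left out, members called were 1 to 3 for vehicle against WT, 0 to 2 for AG221 against vehicle, 0 to 2 for combo against vehicle, 1 to 5 for combo against AG221, 1 to 3 for combo against Rux, 2 to 5 for AG221 against WT, 2 to 3 for Rux against WT and 0 to 4 for the interaction.

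Genes called moved as follows. Vehicle against WT (5937) gave 3406 with at least 10 counts, 9904 without the 3 libraries and 1901 to 5907 with 1 left out. AG221 against vehicle (176) gave 738 with upper quartile, 906 with at least 10 counts, 337 with GC offsets, 0 with only the groups compared, 2247 with DESeq2, 3 without the 3 libraries and 0 to 4672 with 1 left out, the highest without A9. Rux against vehicle (3) gave 17 with no filter, 0 with only the groups compared, 50 with DESeq2, 0 without the 3 libraries and 0 to 9 with 1 left out. Combo against vehicle (2226) gave 3462 without the 3 libraries and 1006 to 1965 with 1 left out. Combo against AG221 (5917) gave 3788 with only the groups compared, 109 without the 3 libraries and 3002 to 8140 with 1 left out, and combo against Rux (2217) gave 1137 to 1899 with 1 left out. AG221 against WT (9040) gave 2160 without the 3 libraries and 6479 to 10793 with 1 left out, and Rux against WT (5759) gave 1910 to 5074. Combo against WT (579) gave 274 with at least 10 counts, 1788 with only the groups compared, 1800 with DESeq2 and 88 to 415 with 1 left out. The interaction (1502) gave 3124 with upper quartile, 2485 with at least 10 counts, 167 with only the groups compared, 3671 with DESeq2, 24 without the 3 libraries and 44 to 6087 with 1 left out, the highest without A9.

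Among these 50 pairs the values that reversed were AG221 against vehicle for *Spi1* (0.056) and *Irf8* (0.44) without the 3 libraries (-2.06 to -0.60 and -1.82 to -0.23 with 1 left out) and for *Cebpe* without A1 (-0.065) or A9 (-0.30; up to 0.78 with 1 left out), Rux against vehicle for *Csf1r* without A3 (-0.036) or A14 (-0.079; up to 0.45), and combo against vehicle for *Gfi1b* with GC offsets (-0.049) or without B25 (-0.11; up to 0.36) and for *Irf8* without A4 (0.20) or B25 (0.32; down to -0.44). Combo against AG221 reversed for *Gfi1* without the 3 libraries (-0.057; 0.30 to 1.06 with 1 left out) and for *Cebpb* without A9 (0.47; down to -0.59), AG221 against WT for *Cebpa* without A9 (-0.13; up to 0.60), and combo against WT for *Cebpe* with upper quartile (-0.050) or without B30 (-0.060; up to 0.33). Scaling moved the median of all genes by over 0.1, for combo against AG221 from 0.11 to -0.183 with upper quartile, where the share of higher calls went from 57% to 38%. That share also went from 50.3% to 15.9% for combo against WT, 66.5% to 37.2% for the interaction, 46.3% to 26.7% for vehicle against WT, 49.8% to 34% for Rux against WT and 47.7% to 77.4% for AG221 against vehicle with upper quartile, and with GC offsets to 60.1% for vehicle against WT, 57.1% (from 43.8%) for AG221 against WT, 61.9% for Rux against WT and 44.3% for combo against AG221. RLE gave 57.7% for AG221 against vehicle, and DESeq2 12% (from 0%) for Rux against vehicle. Of 90 member levels under RLE or upper quartile scaling 88 stayed within 1 SD. Depth limits *Cebpb*, at 3 to 22 counts. With a prior count of 0.5 in place of 2, 7 of 9 members kept the same 3 nearest genes.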
